A study of Homo sapiens with 6 samples.

Results

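The genes described here are 10 genes of autophagy and the lysosome, listed by name: ULK1, BECN1, MAP1LC3B, GABARAPL1, SQSTM1, LAMP1, CTSB, CTSD, CTSL and TFEB. All 10 were found among the 61014 annotated genes with a transcript on file, and all 10 passed the expression filter that left 20442 genes for testing. Their RNA was measured by long non-coding RNA sequencing of total RNA in paclitaxel (PTX)-resistant MDA-MB-231 cells, a human triple-negative breast cancer line. Cells were separated by fluorescence-activated sorting on aldehyde dehydrogenase (ALDH) activity. This gave breast cancer stem cells (BCSC, ALDH+, 3 samples) and non-BCSC (ALDH-, 3 samples). By the study's text both groups came from PTX-resistant cells, whereas the sample titles name the line and the resistance for BCSC only. The titles of the samples gave the groups, since the label for cell type does not differ among the 6. Nothing in the labels says that replicates came from separate cultures, so the p-values measure only the spread between these samples, which may be technical.

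Autophagy carries cytoplasmic material to the lysosome. The ULK1 kinase starts the process, the lipid kinase complex around Beclin 1 (BECN1) marks the site, and ubiquitin-like ATG8 proteins, among them LC3B (MAP1LC3B) and GABARAPL1, are joined to the growing membrane. The receptor p62 (SQSTM1) binds both cargo and LC3 and is itself degraded by the pathway. The closed vesicle fuses with a lysosome, whose membrane is lined by LAMP1 and whose lumen holds proteases such as the cysteine cathepsins B and L (CTSB, CTSL) and the aspartyl cathepsin D (CTSD). TFEB is a transcription factor that acts on many lysosome and autophagy genes through a short palindromic promoter element, the CLEAR motif, and is held in the cytoplasm by the kinase mTORC1. These are RNA levels, and they do not measure autophagic flux.

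Of the 10 genes, 4 differed between the groups at an adjusted p under 0.05. SQSTM1 and CTSD were more than 2-fold higher in BCSC, LAMP1 rose 1.68-fold, and CTSB fell and was 1.48-fold higher in non-BCSC. Counting a gene as called at an adjusted p under 0.05 and a fold above 2, 2 of the 10 were called higher and 0 lower, where 8.85% of all genes tested were called higher and 11.3% lower. At an adjusted p under 0.05 with no fold minimum, 3 were higher and 1 was lower, against 15.3% and 14.6% of all genes tested. All 3 BCSC samples lay above all 3 non-BCSC samples for 5 of the 10 genes and below them for 0, against 24.2% and 27.9% of all genes. The median log2 fold change of the 10 was 0.40, beside -0.05 over all genes tested and 0.22 over the 12576 genes that averaged 50 counts or more (well-counted genes). Values are library-scaled counts (CPM, per 1e6 counts) of all transcripts of a gene, as mean ± SD with n = 3 per group, and each log2 fold change compares BCSC with non-BCSC (above 0, higher in BCSC) and carries its standard error (SE) from edgeR's quasi-likelihood test, with Benjamini-Hochberg adjustment over all genes tested.

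**Figure D1:**
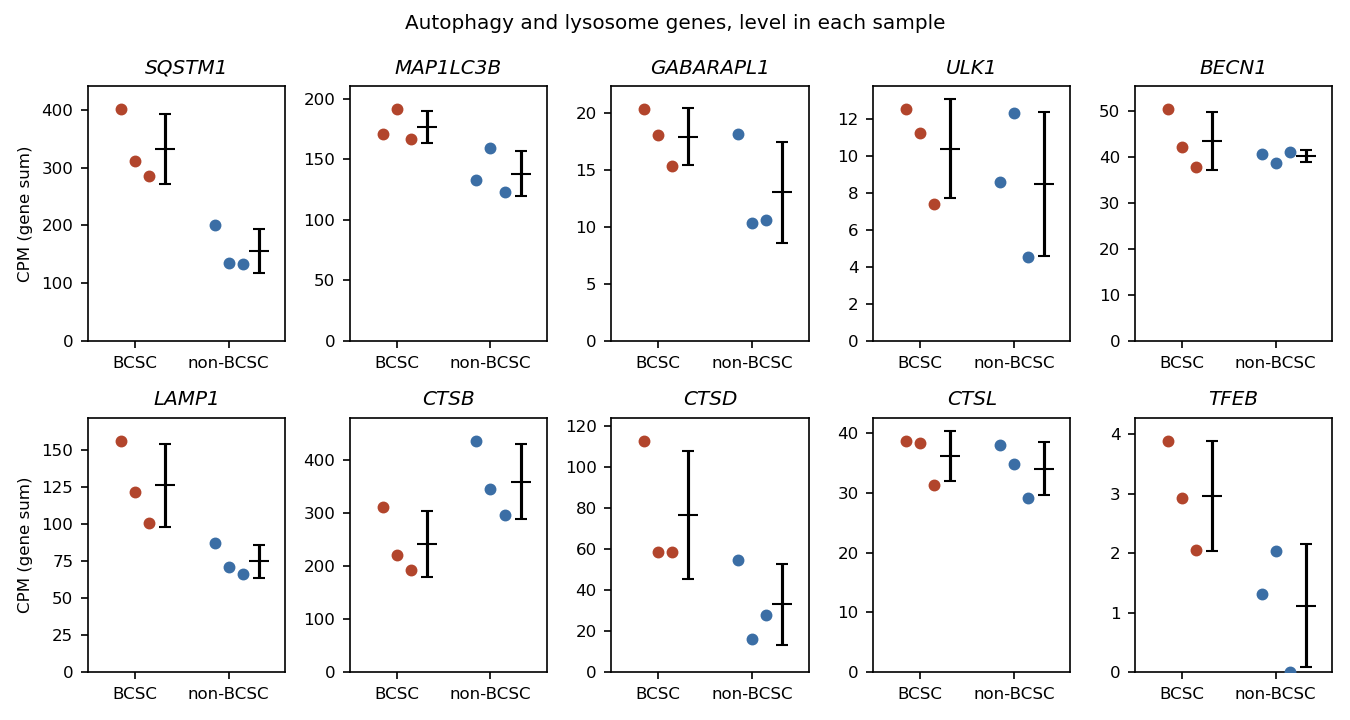
Level of each of the 10 genes in each sample, in CPM on an axis that starts at 0, with BCSC in red and non-BCSC in blue. Points are samples, and the black bar is the mean with the SD (n = 3). All 3 BCSC samples lay above all 3 non-BCSC samples for SQSTM1, LAMP1, CTSD, MAP1LC3B and TFEB, and CTSB lay lower on average with overlapping groups.

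The samples differed in depth and in composition along the same line as the groups. Total counts were 15925743 to 21214639 in BCSC against 9898487 to 12263544 in non-BCSC. Counts over 391 olfactory receptor genes, which this cell type is not known to use and which served as a measure of background, came to 0.966 to 3.002 counts per kb in BCSC against 7.85 to 14.4 in non-BCSC. Across the 12576 well-counted genes the log2 fold change rose with the GC content of the transcripts (Spearman's rho 0.58, as a description across genes that share the same 6 libraries). The median GC content was 44.8% over all genes tested, and 9 of the 10 genes lay above it. The markers VIM, CD44, EGFR, KRT8, KRT18 and AXL of the cell line summed to 5928 to 7069 CPM in BCSC against 3938 to 5436 in non-BCSC, although KRT8 and KRT18 among them were called lower in BCSC (log2 fold changes of -3.15 and -2.56). The markers it should lack (ESR1, PGR, ERBB2, EPCAM and CDH1) summed to 64.2 to 78.7 and 94.6 to 130 CPM. The 9 macrophage and leukocyte markers on file of 10 listed summed to 1.44 to 3.87 CPM in BCSC against 22.9 to 33.3 in non-BCSC. The 5 fibroblast markers summed to 6.85 to 11.7 CPM in BCSC against 22.7 to 49.5 in non-BCSC, and 2 of 3 endothelial markers to 18.5 to 33.8 and 46.8 to 88.2. Averaged over the 6 samples, 2 of the 9, 3 of the 5 and 1 of the 2 exceeded 2 times the olfactory receptor level per kb. The part of depth, background, GC content and these markers in the results was not tested. In bulk RNA, fewer cells of a type and less RNA per cell cannot be told apart.

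Because of these differences, each fold change was also computed with counts corrected for GC content and length, by a curve fitted to well-counted genes, and with background removed. The GC correction moved the median of those well-counted genes from 0.22 to -0.02, and a second form of it, fitted to all genes, moved that median to 0.59, so values under the second form are given with their distance from that median. Removal of background left 15956 genes for testing, so its median of 0.13, beside -0.05 before, covers fewer genes. Over the well-counted genes it moved the median down, from 0.22 to 0.12. The first form, used unless the second is named, lowered the median log2 fold change of the 10 genes from 0.40 to -0.07. Under it 8.58% of all genes tested were higher and 18.2% lower at an adjusted p under 0.05, with 2.06% and 12.5% called. The median over all genes tested was then -0.27, so these shares lean toward lower.

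The order of levels, compared per transcript length in TPM (transcript counts divided by length, scaled to a common total), differed between the groups at the top. In BCSC the order was SQSTM1 at 328 ± 39.7, MAP1LC3B at 219 ± 18.9, CTSB at 176 ± 37.7, LAMP1 at 120 ± 20.6, CTSD at 94.9 ± 35.6, BECN1 at 53.5 ± 6.93, CTSL at 47.1 ± 3.55, GABARAPL1 at 24.0 ± 2.83, ULK1 at 6.83 ± 1.30 and TFEB at 3.03 ± 0.596 TPM. In non-BCSC it was CTSB at 263 ± 39.7, MAP1LC3B at 172 ± 23.6, SQSTM1 at 157 ± 34.2, LAMP1 at 71.1 ± 5.98, BECN1 at 52.9 ± 5.71, CTSL at 48.4 ± 4.36, CTSD at 29.9 ± 20.03, GABARAPL1 at 17.8 ± 7.30, ULK1 at 5.11 ± 1.47 and TFEB at 1.30 ± 1.13 TPM. CTSB, the cysteine protease, was thus the most abundant of the 10 in non-BCSC and the receptor SQSTM1 the most abundant in BCSC. Sample ranges of neighbours overlapped for MAP1LC3B and CTSB, LAMP1 and CTSD, and BECN1 and CTSL in BCSC. In non-BCSC they overlapped for MAP1LC3B and SQSTM1, for BECN1 and CTSL, for CTSL and CTSD, and for CTSD and GABARAPL1. Among all genes tested, 98.1% lay below SQSTM1 in BCSC, and 33.7% in BCSC against 7.08% in non-BCSC lay below TFEB.

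ULK1, the kinase that receives nutrient signals, was measured at 12.5, 11.2 and 7.38 CPM in BCSC against 8.58, 12.3 and 4.51 CPM in non-BCSC. The groups overlapped, and the lowest sample of each group was its replicate 3. The log2 fold change was 0.29 (SE 0.42, adjusted p = 0.625). It became -1.14 after the GC correction (adjusted p = 0.0588), and -1.36 when the curve was fitted to all genes (adjusted p = 0.0320; -1.95 relative to the median of well-counted genes). At 63.8%, ULK1 had the highest GC content of the 10.

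BECN1, the scaffold of the class III phosphatidylinositol 3-kinase complex, was measured at 50.3, 42.2 and 37.8 CPM in BCSC against 40.6, 38.6 and 41.1 CPM in non-BCSC. The non-BCSC samples lay inside the range of the BCSC samples, and the log2 fold change was 0.12 (SE 0.17, adjusted p = 0.629). It was -0.06 after the GC correction (adjusted p = 0.796), but with the curve fitted to all genes BECN1 passed the test at 0.76 (adjusted p = 0.0236; 0.17 relative to the median of well-counted genes), and at 0.73 with the replicate number as a block as well (adjusted p = 0.00564). BECN1 shares 8966 nt of its locus with PSME3 on the opposite strand, whose counts came to 439% of those of BECN1. Whether strand was used when reads were counted is not stated, so reads of the overlapping part cannot be assigned with certainty.

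MAP1LC3B (GRCh37 chr16:87417559-87438385, plus strand) was measured at 171, 191 and 167 CPM in BCSC against 133, 159 and 123 CPM in non-BCSC. Every BCSC sample lay above every non-BCSC sample, by 8.16 CPM at the closest pair. The means were 176 ± 13.1 and 138 ± 18.6 CPM, a log2 fold change of 0.35 (SE 0.12) that did not pass the test (adjusted p = 0.0573). It passed without non-BCSC replicate 2, the highest non-BCSC sample (0.51, adjusted p = 0.0377), and after the GC correction (0.39, adjusted p = 0.0180), while removal of background left 0.06 (adjusted p = 0.726). At 42.5%, MAP1LC3B had the lowest GC content of the 10. Its copy MAP1LC3B2, 98.0% identical over 741 nt, held 0.809% as many counts.

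GABARAPL1, of the GABARAP branch of the ATG8 proteins, was measured at 20.3, 18.1 and 15.4 CPM in BCSC against 18.2, 10.3 and 10.6 CPM in non-BCSC. Non-BCSC replicate 1 lay within the BCSC range and the other two below it. The log2 fold change was 0.46 (SE 0.30, adjusted p = 0.269). Its near-identical copy GABARAPL3 had 0 counts.

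SQSTM1 (GRCh37 chr5:179233398-179265078, plus strand), the selective autophagy receptor, was measured at 401, 312 and 285 CPM in BCSC against 200.2, 135 and 134 CPM in non-BCSC. The groups did not overlap, and replicate 1 was the highest sample in both. The means were 333 ± 60.7 and 156 ± 38.1 CPM, and the log2 fold change was 1.09 (SE 0.18, adjusted p = 0.00334). SQSTM1 rose with each replicate left out in turn, with log2 fold changes of 0.93 to 1.36 and adjusted p of 0.00321 to 0.0248, and without BCSC replicate 1 it fell under the 2-fold minimum. Removal of background left 0.80 (adjusted p = 0.0140). The GC correction ended the call (0.15, adjusted p = 0.208), and relative to the median of well-counted genes SQSTM1 went from 0.87 to 0.17. SQSTM1 overlaps MRNIP and MGAT4B on the opposite strand, with counts of 4.19% and 21.9% of its own.

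**Figure D2:**
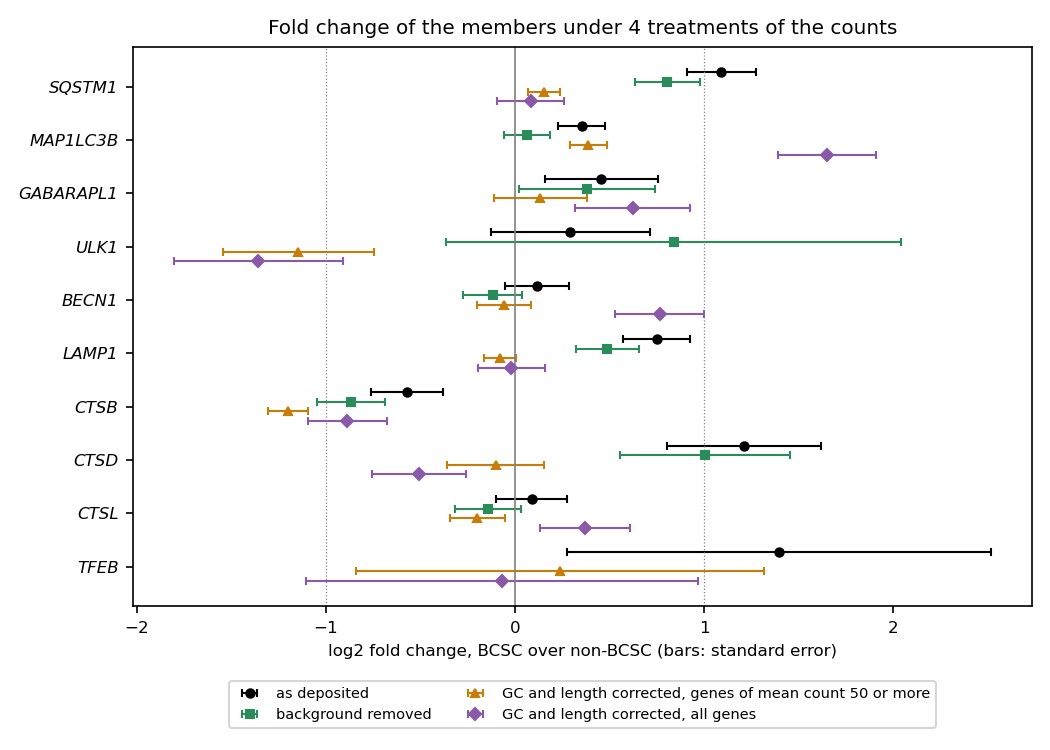
Log2 fold change (BCSC over non-BCSC) of each of the 10 genes with its standard error, for the counts as deposited, after removal of background, and after both GC and length corrections. Dotted lines mark a 2-fold change; TFEB after removal of background is left out because all its non-BCSC values were then 0. SQSTM1 lay at 1.09 as deposited and 0.15 after the correction on well-counted genes, and CTSB lay below 0 in all 4.

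The promoters of the 10 genes were read from RefSeq (GRCh38.p14), from 250 bases before to 50 bases after the start of each gene. An entry existed for 9 of the 10, CTSB being without one. The CLEAR-type palindrome TCACGTGA stood in the promoter of 1 of these 9, LAMP1, and in 1.04% of all 27305 promoters. The shorter E-box CACGTG, which the CLEAR-type palindrome contains, stood in those of LAMP1 and CTSD, and in 7.43% of all promoters. Both motifs are palindromic, so a match on either strand is the same match. The LAMP1 promoter held 6 E-boxes, and is shown from 200 bases before to 5 bases after the start (GRCh38.p14 chr13:113297039-113297243, plus strand) with E-boxes in capitals, followed by 30 bases around the CLEAR-type motif 29 bases before that start, and by 30 bases of the CTSD promoter with its E-box 47 bases before the start:
LAMP1 promoter: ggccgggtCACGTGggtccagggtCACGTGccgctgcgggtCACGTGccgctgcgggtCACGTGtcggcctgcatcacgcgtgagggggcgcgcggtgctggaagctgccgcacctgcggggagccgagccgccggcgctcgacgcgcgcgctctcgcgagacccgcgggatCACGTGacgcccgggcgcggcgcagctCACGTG
LAMP1 CLEAR-type motif (chr13:113297199-113297228, plus strand): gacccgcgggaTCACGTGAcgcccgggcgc
CTSD E-box (chr11:1763957-1763986, minus strand): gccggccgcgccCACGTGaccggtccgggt
In the LAMP1 promoter, 4 of the E-boxes lay between 192 and 142 bases before the start, in repeats of closely similar sequence, and both CLEAR-type motifs lay within 29 bases of the start. A match is a description of the letters and not evidence of binding.

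LAMP1 (GRCh37 chr13:113951554-113977987, plus strand), which lines the lysosomal membrane, was measured at 156, 121 and 101 CPM in BCSC against 87.6, 71.4 and 66.2 CPM in non-BCSC. The groups did not overlap, and the SD of BCSC was the larger. The means were 126 ± 28.2 and 75.0 ± 11.2 CPM, a log2 fold change of 0.75 (SE 0.18, adjusted p = 0.0135). LAMP1 rose in this test, and lost its place under the threshold without non-BCSC replicate 2 (0.76, adjusted p = 0.0504), without non-BCSC replicate 3 (0.69, adjusted p = 0.0515) and after removal of background (0.49, adjusted p = 0.0619). After the GC correction the value was -0.08 (adjusted p = 0.530). Of its counts, 94.9% belonged to a single transcript, LAMP1-201.

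The cathepsins did not move together. CTSD (GRCh37 chr11:1773982-1785803, minus strand) was measured at 113, 58.6 and 58.7 CPM in BCSC against 54.9, 16.3 and 28.1 CPM in non-BCSC. The groups did not overlap, though the highest non-BCSC sample lay close to the 2 lower BCSC samples. The means were 76.7 ± 31.2 and 33.1 ± 19.7 CPM, and the log2 fold change was 1.21 (SE 0.41, adjusted p = 0.0497). The call was marginal. It was lost without BCSC replicate 1 (0.83, adjusted p = 0.176), non-BCSC replicate 2 (0.93, adjusted p = 0.124) and non-BCSC replicate 3 (1.12, adjusted p = 0.146). It was also lost without BCSC replicate 2 (1.40, adjusted p = 0.0659) and BCSC replicate 3 (1.37, adjusted p = 0.0539), although the fold was then larger. Among these fits it was kept only without non-BCSC replicate 1 (1.84, adjusted p = 0.0142). With the replicate number as a block in edgeR the value was 1.30 (adjusted p = 0.000618), and DESeq2 gave 1.16 (adjusted p = 0.0147). Over all 17 alternative fits, 3 kept the direction and the threshold, 11 kept the direction only and 3 reversed it. CTSD had a GC content of 63.6%, and the GC correction took its log2 fold change to -0.10 (adjusted p = 0.803). The protein-coding gene ENSG00000250644 overlaps CTSD by 11203 nt on the same strand and is 100% identical to it over 1140 nt. It held 5.34% as many counts, and reads of the shared part cannot be assigned with certainty.

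CTSB (GRCh37 chr8:11700033-11727042, minus strand) was measured at 312, 222 and 194 CPM in BCSC against 437, 346 and 297 CPM in non-BCSC. BCSC replicate 1 lay above non-BCSC replicate 3, so the groups overlapped. Within each group replicate 1 was the highest and replicate 3 the lowest sample. The means were 243 ± 61.8 and 360.0 ± 71.3 CPM, and CTSB fell by 0.57 on the log2 scale (SE 0.19, adjusted p = 0.0483). Among the fits that left out a replicate, it passed only without BCSC replicate 1 (-0.79, adjusted p = 0.0170), and the others gave -0.35 without non-BCSC replicate 1 (adjusted p = 0.213), -0.43 without BCSC replicate 3 (adjusted p = 0.129), -0.48 without BCSC replicate 2 (adjusted p = 0.163), -0.55 without non-BCSC replicate 2 (adjusted p = 0.131) and -0.67 without non-BCSC replicate 3 (adjusted p = 0.0551). The correction for GC content made the difference larger, at -1.20 (adjusted p = 8.1e-05), or -1.18 relative to the median of well-counted genes. Removal of background gave -0.87 (adjusted p = 0.0126). CTSB was the only one of the 10 genes below 0 in the counts as deposited.

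CTSL was measured at 38.7, 38.4 and 31.2 CPM in BCSC against 37.9, 34.8 and 29.2 CPM in non-BCSC, ranges that overlapped for most of their length. The log2 fold change was 0.09 (SE 0.19, adjusted p = 0.749). The ratio of cathepsins to each other within a sample does not depend on how samples are scaled. In TPM it does depend on how counts were split among transcripts of different length. All CTSD counts of non-BCSC replicate 2 lay on the transcript CTSD-210, of 4408 nt, where CTSD-201 has 2055 nt. The ratios also carry no GC correction, and the GC content was 63.6% for CTSD against 52.0% for CTSB. CTSD reached 0.623, 0.443 and 0.522 of the TPM of CTSB in BCSC against 0.162, 0.0383 and 0.131 of it in non-BCSC, with no overlap. The same ratio for LAMP1 was 0.650, 0.706 and 0.693 in BCSC against 0.254, 0.271 and 0.291 in non-BCSC, again with no overlap. These ratios were chosen after the values were seen and carry no test; in any exact two-sided permutation test of 3 samples against 3, 20 arrangements exist and the smallest possible p is 0.1.

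TFEB was measured at 3.89, 2.94 and 2.06 CPM in BCSC against 1.32, 2.03 and 0 CPM in non-BCSC, from 79, 45 and 34 counts and from 16, 23 and 0 counts. The lowest BCSC sample lay just above the highest non-BCSC sample. A count of 0 in non-BCSC replicate 3 allows up to 3 counts, or 0.288 CPM, by counting error alone. The log2 fold change was 1.39 with an SE of 1.12 (adjusted p = 0.370), and the non-BCSC level per kb was 0.531 times that of the olfactory receptor genes. With all samples thinned to the smallest the value was 1.54, and TFEB did not pass the test.

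The counts had been deposited per transcript, and 211 transcripts of the 10 genes were on file, of which 118 had counts and 38 could be tested. None was called by edgeR's quasi-likelihood test (0 of 38, with 7 at an unadjusted p under 0.05), where 0.784% of all 46176 transcripts tested were called. The lowest adjusted p among the 38 was 0.0738. On simulated transcript counts, this test recovered 6 of 200 transcripts changed by 2 on the log2 scale at a dispersion of 0.3. That dispersion was a chosen setting, narrower than the spread of these transcripts (common coefficient of variation 1.02 in edgeR). A transcript that was not called may therefore still differ. The share of all transcripts that DESeq2 called is not given here. DESeq2 called 3: CTSD-210 at a log2 fold change of -2.98 (adjusted p = 0.00530), and CTSL-209 and ULK1-203, which had 0 counts in every non-BCSC sample.

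**Figure D3:**
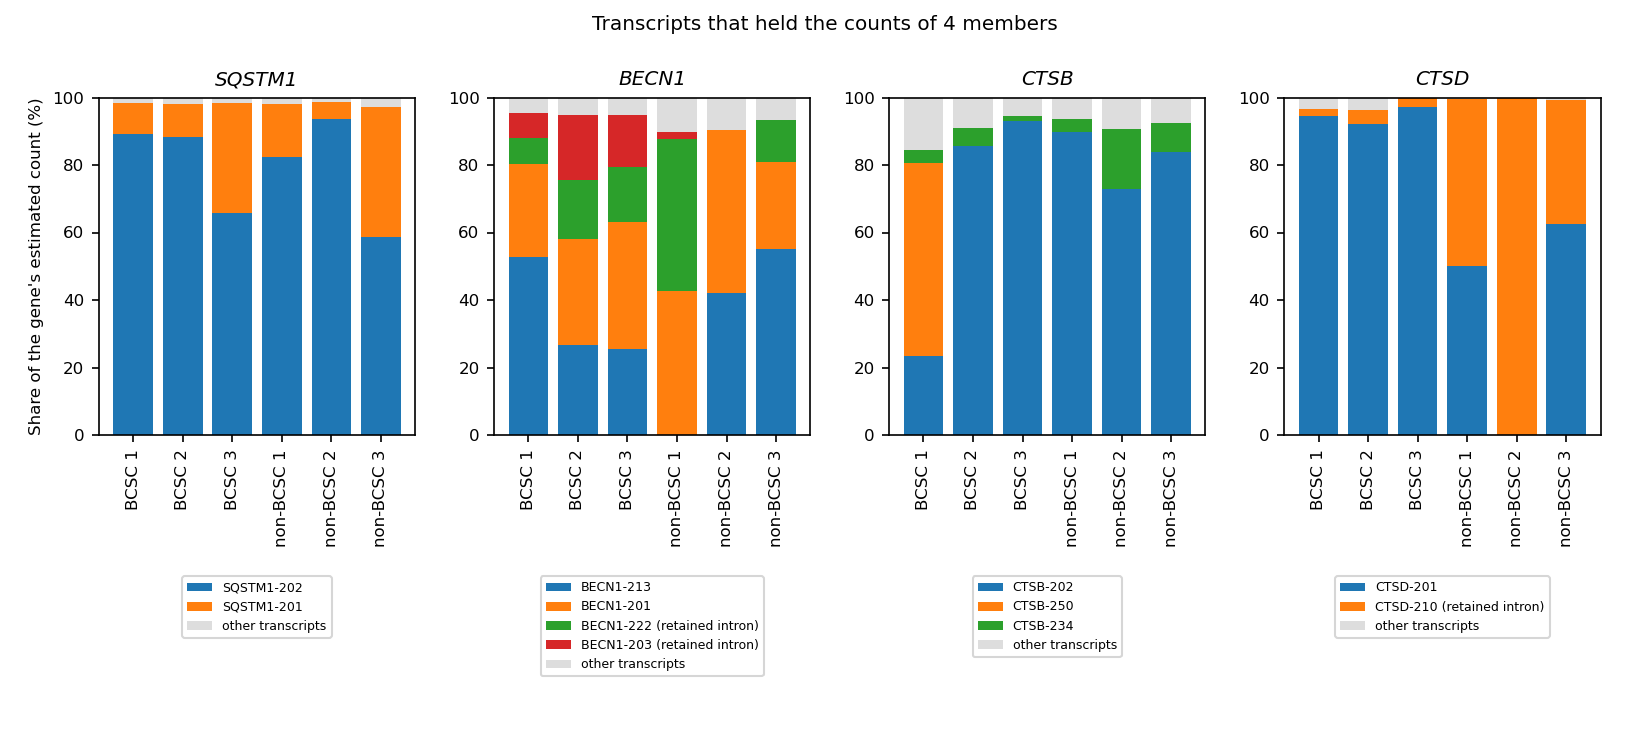
Share of the estimated counts of SQSTM1, BECN1, CTSB and CTSD that each transcript held, in percent, for each of the 6 samples. Transcripts with at least 5% of a gene's counts over all samples have a colour of their own and grey holds the rest. The retained-intron transcript CTSD-210 held 2.14% to 4.12% of CTSD in BCSC against 36.9% to 100% in non-BCSC.

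Over all 6 samples together, single transcripts held most of the counts of several of the 10 genes. MAP1LC3B-201 held 98.4% of the counts of its gene, ULK1-201 held 87.6%, CTSD-201 held 84.0%, SQSTM1-202 held 81.9%, GABARAPL1-201 held 70.8% and CTSB-202 held 69.6%. CTSD differed between the groups in which transcript held the counts, CTSD-201 averaging 37.5% in non-BCSC. The coding transcript CTSD-201 had 2165, 827 and 944 counts in BCSC against 333, 0 and 183 in non-BCSC. CTSD-210, annotated as keeping an intron, had 49, 37 and 27 counts in BCSC against 329, 185 and 108 in non-BCSC, a log2 fold change of -2.98 (SE 0.60, adjusted p = 0.0743 in edgeR, and 0.0282 with a minimum of 10 counts in every sample). CTSD-201 had a log2 fold change of 2.36 (SE 1.75, adjusted p = 0.589 in edgeR). The groups did not overlap for either transcript, in opposite directions. Among gene sums, 24.2% lay fully higher in BCSC and 27.9% fully lower, and the share among transcripts is not given here. Retained-intron transcripts made up 3.01% ± 1.01 of CTSD in BCSC against 62.1% ± 33.4 in non-BCSC, while over all genes they made up 9.55% ± 0.452 and 9.39% ± 0.619. The averages went the other way for ULK1 (18.4% ± 5.36 in BCSC, 5.52% ± 8.11 in non-BCSC) and CTSL (28.2% ± 6.31 and 14.5% ± 9.42). None of these shares was tested. The share of CTSD in non-BCSC replicate 2 was 100%, at 185 counts.

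CTSB was divided differently. CTSB-250 had 3618 counts in BCSC replicate 1 and 0 in the other 5 samples, and CTSB-202 had 1484, 2918 and 2981 counts in BCSC against 4753, 2857 and 2595 in non-BCSC. In BCSC replicate 1, then, CTSB-250 held 57.1% of the gene and CTSB-202 held 23.4%, although both differ by only 102 nt in length. BECN1-213 was likewise at 0 in non-BCSC replicate 1 and held 25.6% to 55.0% of the gene elsewhere. How reads were divided among transcripts of a gene is not given in the sources used here, and such splits move values between transcripts but not the gene sums.

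Beyond the 10 genes, 161 other genes of the same pathways were listed, of which 156 could be tested. Of these, 33 were called higher in BCSC against 5 lower, and 50 and 8 passed the test in each direction without a fold minimum, a called share of 21.2% higher and 3.21% lower. Among all genes tested 8.85% were called higher and 11.3% lower, and among well-counted genes 13.7% and 6.45%. Their median log2 fold change was 0.35, and -0.01 after the GC correction, under which 26 rose and 14 fell (8.58% and 18.2% of all genes tested). Under it 6 were called higher and 5 lower, against 2.06% and 12.5% of all genes tested. Those shares cover all genes tested, whose median was -0.27 under this correction. Shares among well-counted genes under it are not given here. The 6 genes called higher after that correction were all among the 33, and the 5 called lower were the same 5. The 6 were GABARAP, CST3, NEU1, NPC2, ATP6V1F and ATP6V0B, the last 2 named after their values were seen.

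Of 47 pathway genes at an adjusted p under 0.05 that are named here, 30 stayed under it with each replicate left out in turn and 17 did not. Without BCSC replicate 1 the adjusted p reached 0.118 for AMBRA1, 0.154 for ATG2A, 0.108 for ATG4B, 0.121 for ATG4D, 0.068 for ATP6V0B, 0.103 for ATP6V1F, 0.0602 for CLCN7, 0.125 for PIK3C3, 0.0831 for TOLLIP and 0.157 for YKT6. Without BCSC replicate 2 it reached 0.0847 for GALC, 0.0984 for IDS, 0.0841 for MCOLN1 and 0.117 for VPS11. Without non-BCSC replicate 2 it was 0.0535 for CSTA, and without non-BCSC replicate 3 it was 0.0544 for SERPINB3 and 0.151 for TFEC. These are the highest values over the 6 fits, and directions did not change. After the GC correction 28 of the 47 stayed under 0.05 and 19 did not. Beside those whose corrected values stand with them, the 19 held TOLLIP (0.64, adjusted p = 0.194), PLEKHM1 (0.48, adjusted p = 0.206), VPS11 (0.26, adjusted p = 0.488), YKT6 (-0.18, adjusted p = 0.453), CLCN7 (1.67, adjusted p = 0.0544), MCOLN1 (0.59, adjusted p = 0.268), IDS (0.29, adjusted p = 0.0540), ATP6V0D1 (0.44, adjusted p = 0.157), ATP6V0C (0.47, adjusted p = 0.0968), ATP6V0A1 (0.20, adjusted p = 0.310) and FLCN (0.78, adjusted p = 0.0641).

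**Figure D4:**
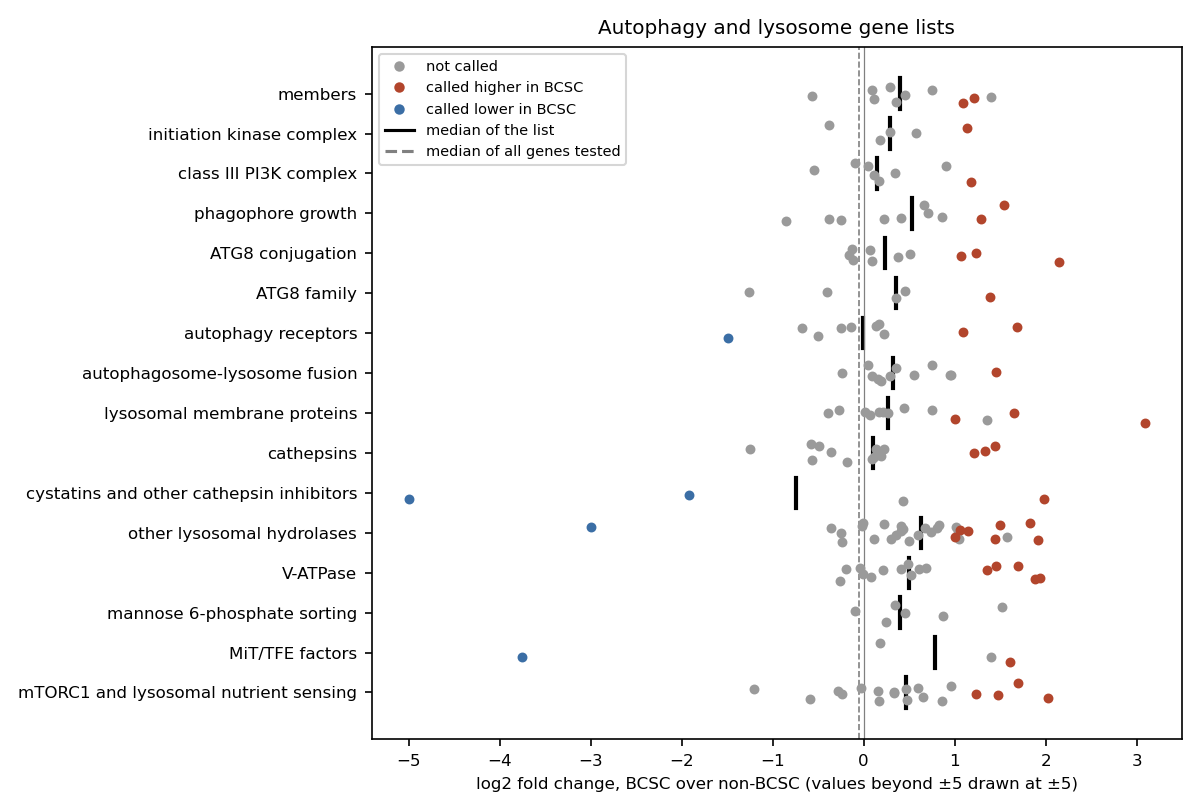
Log2 fold change (BCSC over non-BCSC) of every tested gene in each autophagy and lysosome list, with called genes in red (higher) or blue (lower). The black line is the median of a list and the dashed line the median of all genes tested, -0.05. The V-ATPase and the lysosomal hydrolases lay mostly above 0; SERPINB3, with 0 counts in BCSC, is drawn at -5.

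Counts per list stand beside these shares of all genes tested: 8.85% called higher and 11.3% lower, and 15.3% and 14.6% passing without a fold minimum. In the initiation kinase complex, 1 of 5 was called: ATG13, the ULK1-binding regulator, at 96.7 ± 16.1 CPM in BCSC against 43.99 ± 4.84 in non-BCSC (log2 fold change 1.14, adjusted p = 0.00165; 0.48 after the GC correction, adjusted p = 0.0120). Of the 8 genes of the class III phosphatidylinositol 3-kinase complex, RUBCN was called higher (1.18, adjusted p = 0.00275; 0.68 after the GC correction), AMBRA1 rose by 0.90 (adjusted p = 0.0295; 0.05 after the GC correction, adjusted p = 0.864) and the catalytic subunit PIK3C3 fell by 0.55 (adjusted p = 0.0351). RUBCN encodes Rubicon, an inhibitor of the complex.

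Among 10 genes of phagophore growth, the lipid scramblase ATG9A and the lipid transporter ATG2A were called higher, at 1.29 (adjusted p = 0.00262) and 1.54 (adjusted p = 0.0289). After the GC correction they stood at 0.13 (adjusted p = 0.573) and 0.02 (adjusted p = 0.976). The endoplasmic reticulum scramblases VMP1 and TMEM41B, which act at the same step, went in opposite directions. VMP1 was at 732 ± 74.2 CPM in BCSC against 462 ± 47.1 in non-BCSC and rose by 0.66 (adjusted p = 0.00362), and TMEM41B was at 61.4 ± 2.88 and 110 ± 7.55 CPM and fell by 0.85 (adjusted p = 0.00160). The GC correction on well-counted genes left them at 0.75 and -0.72; the correction on all genes turned TMEM41B to 0.54 (-0.06 relative to the median of well-counted genes), and VMP1 was at -0.37 when only protein-coding transcripts were summed.

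Of the enzymes that attach ATG8 proteins to lipid, 3 of 10 were called higher: ATG7, the activating enzyme, at 1.23 (adjusted p = 0.0120), and the proteases ATG4B at 1.07 (adjusted p = 0.0212) and ATG4D at 2.15 (adjusted p = 0.0213). The GC correction ended the calls of both proteases, at 0.12 (adjusted p = 0.760) for ATG4B and 0.87 (adjusted p = 0.215) for ATG4D, and left ATG7 at 0.78 (adjusted p = 0.0350), under the 2-fold minimum. GABARAP was called in the ATG8 family, at 92.1 ± 19.7 CPM in BCSC against 35.1 ± 3.90 in non-BCSC (1.39, adjusted p = 0.00115). It kept its call after the GC correction (1.13, adjusted p = 0.000351), and its level per length relative to that of MAP1LC3B was 1.09, 0.769 and 0.734 in BCSC against 0.487, 0.323 and 0.466 in non-BCSC.

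The autophagy receptors split. Besides SQSTM1, TOLLIP was called higher (1.69, adjusted p = 0.0173). BNIP3L, a mitochondrial outer membrane protein that recruits LC3 in mitophagy, was called lower, at 259, 347 and 343 CPM in BCSC against 912, 978 and 770 CPM in non-BCSC. The groups were well apart (-1.49, SE 0.14, adjusted p = 0.000248), and the fold stood at -1.35 after the GC correction on well-counted genes, and at -0.0044 (-0.60 relative to the median of well-counted genes) under the correction on all genes. TAX1BP1, a receptor for ubiquitinated cargo, fell by 0.68 (adjusted p = 0.00561), and stood at 0.77 (0.17 relative to the median of well-counted genes) under the correction on all genes. Among 12 fusion factors tested, PLEKHM1 was called higher (1.45, adjusted p = 0.00752), and VPS11 and YKT6 rose by 0.95 (adjusted p = 0.0225) and 0.55 (adjusted p = 0.0471).

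In the list of lysosomal membrane proteins, 3 of 13 were called higher: the cholesterol exporter NPC1 (1.01, adjusted p = 0.00484), the chloride-proton exchanger CLCN7 (3.09, adjusted p = 0.0105) and the calcium channel MCOLN1 (1.65, adjusted p = 0.0208). CLCN7 was low, at 251, 98 and 103 counts in BCSC against 18, 3 and 12 in non-BCSC. In the cathepsin list, 3 of 14 were called higher, CTSD with TPP1 and CTSA. TPP1, a tripeptidyl peptidase, was at 73.6, 79.0 and 72.0 CPM in BCSC against 29.5, 31.7 and 28.1 CPM in non-BCSC, with the groups far apart (1.33, SE 0.14, adjusted p = 0.000497; 0.86 after the GC correction). CTSA, which protects other hydrolases in a complex, was at 42.6 ± 7.58 and 15.6 ± 2.997 CPM (1.45, adjusted p = 0.00240; 0.50 after the GC correction, adjusted p = 0.0407).

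The inhibitors of cathepsins moved both ways. The secreted cystatin C gene CST3 was called higher, at 104, 80.6 and 73.7 CPM in BCSC against 24.4, 25.003 and 15.8 CPM in non-BCSC (1.98, SE 0.22, adjusted p = 0.000551), and kept its call after the GC correction (1.03). The intracellular inhibitor CSTA was called lower, at 3.54 ± 0.791 and 13.4 ± 6.19 CPM (-1.92, adjusted p = 0.0136). SERPINB3 had 0 counts in all BCSC samples and 17, 11 and 41 in non-BCSC, which puts the non-BCSC level at least 12.01-fold higher against a floor of 3 counts per library. Its non-BCSC level per kb was 1.20 times that of the olfactory receptor genes.

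Of 30 other lysosomal hydrolases and their cofactors, 7 were called higher and 1 lower, against 8.85% and 11.3% of all genes tested. The median log2 fold change of the 30 was 0.64, and -0.05 after the GC correction. Under that correction 3 rose and 2 fell, against 8.58% and 18.2% of all genes tested. NEU1, the lysosomal sialidase that works in complex with CTSA, was at 38.6, 24.9 and 23.7 CPM in BCSC against 10.7, 7.77 and 5.95 CPM in non-BCSC (1.83, adjusted p = 0.00362), and kept its call after the GC correction (1.19). The lipid-binding proteins GM2A and NPC2 were called at 1.15 (adjusted p = 0.00666) and 1.06 (adjusted p = 0.00849). PSAP, the saposin precursor, rose by 0.68 (adjusted p = 0.00915) and stood at -0.08 after the GC correction, and IDS rose by 0.41 (adjusted p = 0.0292). GALC, the galactosylceramidase, was called lower from few counts, 8, 4 and 17 in BCSC against 46, 38 and 67 in non-BCSC (-2.99, adjusted p = 0.0227), with a non-BCSC level per kb 1.45 times that of the olfactory receptor genes.

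Of 16 genes of the V-ATPase, the proton pump that acidifies the lysosome, 5 were called higher, against 8.85% of all genes tested. Without a fold minimum 9 rose and 0 fell, against 15.3% and 14.6%. The median of 0.50 stood at 0.43 after the GC correction, under which 7 rose and 0 fell, against 8.58% and 18.2%. With background removed the median was 0.23, and 4 rose and 2 fell, against 14.9% and 12.9% of the genes tested in that form. ATP6V0D1 (1.36, adjusted p = 0.00459), ATP6AP1 (1.70, adjusted p = 0.00594) and ATP6V0C (1.46, adjusted p = 0.00735) were called, and ATP6V0A1 and ATP6V0E1 rose by 0.68 (adjusted p = 0.00870) and 0.61 (adjusted p = 0.00984). ATP6V0C, which forms the ring of the pump, was at 121, 92.5 and 78.1 CPM in BCSC against 52.0, 21.4 and 32.7 CPM in non-BCSC; under the correction on all genes it was at -0.15 (-0.75 relative to the median of well-counted genes). ATP6V0B and ATP6V1F, which kept their calls after the GC correction, were at 14.8 ± 4.62 and 24.6 ± 9.80 CPM in BCSC against 3.86 ± 2.30 and 6.63 ± 4.47 in non-BCSC (1.94, adjusted p = 0.0145, and 1.89, adjusted p = 0.0278). In mannose 6-phosphate sorting, which routes hydrolases to the lysosome, 1 of 6 passed, the receptor M6PR at 110 ± 8.42 and 59.7 ± 10.9 CPM (0.88, adjusted p = 0.00435).

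Of the relatives of TFEB, TFE3 was called higher, at 34.4, 30.5 and 24.4 CPM in BCSC against 11.7, 9.28 and 8.34 CPM in non-BCSC (1.604, SE 0.25, adjusted p = 0.00252; 0.50 after the GC correction, adjusted p = 0.0814). TFEC, best known from macrophages, was called lower, from 13, 0 and 22 counts in BCSC against 41, 62 and 190 in non-BCSC (-3.75, adjusted p = 0.0279). Its non-BCSC level per kb was 1.504 times that of the olfactory receptor genes. Macrophage and leukocyte markers were also higher in non-BCSC, but only 2 of 9 averaged more than 2 times the olfactory receptor level. A link between them and TFEC was not tested. Of 19 genes of mTORC1 and nutrient sensing, 4 were called higher and 8 rose, against 8.85% and 15.3% of all genes tested. RPTOR, the mTORC1 scaffold, was called at 2.03 (adjusted p = 0.00159), FLCN at 1.70 (adjusted p = 0.00544) and TSC2 at 1.24 (adjusted p = 0.00643), and MTOR and FNIP1 rose by 0.86 (adjusted p = 0.00305) and 0.65 (adjusted p = 0.00456). TSC2 stood at -0.05 after the GC correction (adjusted p = 0.912).

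**Figure D5:**
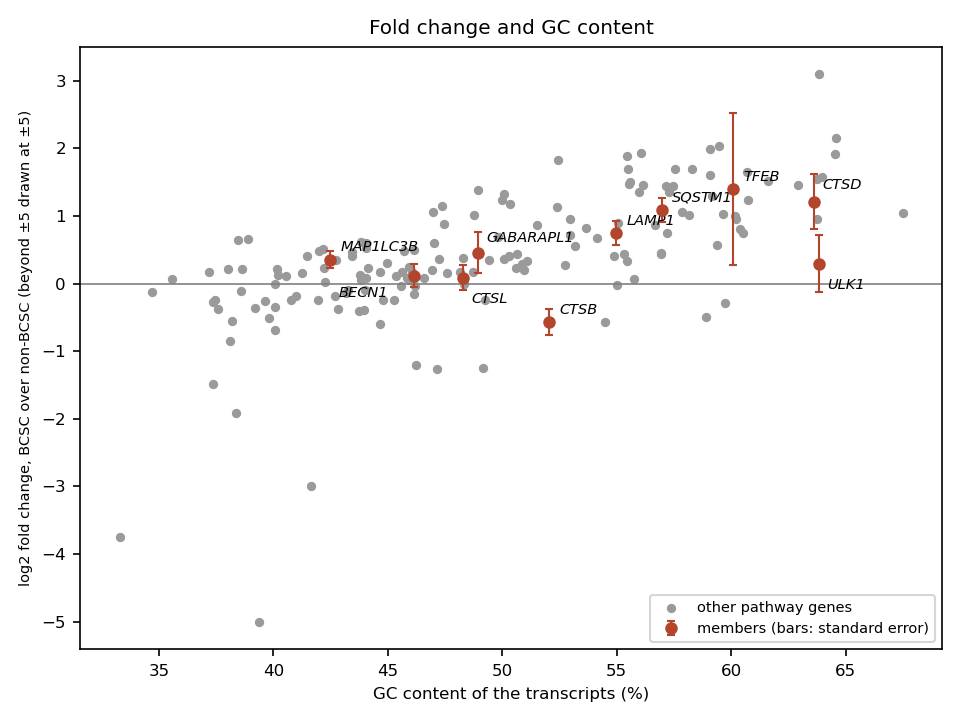
Log2 fold change (BCSC over non-BCSC, as deposited) against the GC content of the transcripts in percent, for the 10 genes in red with standard errors and the other pathway genes in grey. The 4 members with the highest GC content, SQSTM1, TFEB, CTSD and ULK1 at 57.0% to 63.8%, all lay above 0, and CTSB, at 52.0%, lay below.

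The CLEAR-type motif was found in 15 of the 132 pathway promoters with an entry, or 11.4%, against 1.65% of the 12754 promoters of genes tested. The lists hold the kinds of genes on which TFEB is known to act through this motif. The higher share therefore follows from the choice of genes and is no result of these samples. The pathway genes with the motif had a median log2 fold change of 0.95, beside 0.41 over all 132, and 0.26 beside 0.04 after the GC correction. Over all tested genes with a promoter entry, the 211 with the motif had a median of 0.29 beside 0.10, and 0.01 beside -0.15 after the GC correction. Of those 211, 28 were called higher and 5 lower. Of the 15, 7 passed the test, all higher in BCSC, and 8 did not, where 15.3% of all genes tested passed higher and 14.6% lower. Whether the motif had a part in this was not tested. LAMP1 is shown above, and 5 others that passed are shown here, of which CTSA alone also passed after the GC correction, each in 30 bases with the motif in capitals:
CTSA (chr20:45891298-45891327, plus strand): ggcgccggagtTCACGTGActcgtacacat
VPS11 (chr11:119067772-119067801, plus strand): gctggctcagcTCACGTGAcaaagctcccg
MCOLN1 (chr19:7522571-7522600, plus strand): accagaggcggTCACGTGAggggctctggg
ATP6V0D1 (chr16:67481199-67481228, minus strand): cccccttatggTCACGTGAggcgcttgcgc
TSC2 (chr16:2047859-2047888, plus strand): atgcggccccgTCACGTGAtgcaaggatcg
Not all genes with the motif moved this way. ATG3 stood at 0.09 (adjusted p = 0.649), ATP6V1G1 at 0.21 (adjusted p = 0.243), IGF2R at 0.35 (adjusted p = 0.0791) and RRAGB at -0.59 (adjusted p = 0.301). Those 4 were named after their values were seen.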

How the data were processed

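Estimated counts per transcript, in whole numbers and not normalized, had been deposited by the authors for 252618 transcripts. Per the study's methods reads were aligned with HISAT2 to hg19, whereas the submitters' processing notes name hg38, HISAT2, featureCounts and DESeq2; the step that divides reads among transcripts is not given in the sources used here. By identifier, 249787 transcripts (98.9%) matched GENCODE on GRCh37, unmatched ones held 0.27% of the counts, and counts were summed per gene. Gene coordinates are GRCh37, and promoters are GRCh38.p14 from RefSeq.

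Genes and transcripts were tested in edgeR 4.0.16 (R 4.3.3; TMM, filterByExpr, robust quasi-likelihood fit, group as the only term), with Benjamini-Hochberg adjustment. The members and lists were chosen with earlier results of these data known. All members are named; of each list, up to 3 called genes per direction by p, and where fewer than 3 were called up to 2 more at an adjusted p under 0.05. Sequence copies were sought with BLAST+ 2.17.0 (at least 95% identity over 200 nt). GC content and length were corrected with a loess (span 0.3) per sample, background by the olfactory receptor counts per kb. Other alternatives were RLE size factors, DESeq2 1.42.0, other count filters, a replicate block, thinning, protein-coding transcripts only and each replicate left out. TPM divides each transcript's count by its length. On simulated gene counts, 200 of 200 genes changed by 2 on the log2 scale were recovered at a dispersion of 0.05 and 77 of 200 at 0.205. For simulated transcripts it was 200 of 200 at 0.05 and 6 of 200 at 0.3. The dispersion of 0.205 was that of the genes, and 0.05 and 0.3 were chosen settings, both narrower than the spread of the transcripts. Reads carry no molecular identifiers, so floors cover counting error only.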

Additional observations from a re-analysis of the deposited data

How the results depend on the processing

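Among the 10 members, 2 were called higher in the reported fit and with the replicate block, and DESeq2 also called 2. With RLE size factors, no filter on low counts, background removed, thinning to the smallest sample, GC and length correction over all genes, and that correction with the replicate block, 1 was called; with at least 10 counts in every sample, protein-coding transcripts only, and the GC correction on well-counted genes (chosen after seeing the data), 0 were. Leaving out a replicate gave 0 to 2. The member called was MAP1LC3B under the correction over all genes and TFEB with background removed, when its non-BCSC counts were all 0. None was called lower in the reported fit, but 1 was under each of the 3 GC corrections and with no fold minimum. It was ULK1 under the correction over all genes (-1.36, adjusted p = 0.0320) and with the block as well (-1.20, adjusted p = 0.0266). It was CTSB under the correction on well-counted genes (-1.20, adjusted p = 8.1e-05) and with no fold minimum (-0.57, adjusted p = 0.0483). Of the other pathway genes, 33 were called higher, 6 under the GC correction on well-counted genes, 19 with protein-coding transcripts only, 50 with no fold minimum and 19 to 35 with a replicate left out. Of these genes 5 were called lower; the count was 3 with at least 10 counts, with background removed and with protein-coding transcripts only, 2 under the GC correction over all genes, 1 with the block as well, 8 with no fold minimum and 2 to 5 with a replicate left out. Member transcripts were called 0 times by edgeR, 3 times by DESeq2 and 1 time with at least 10 counts.

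Several log2 fold changes changed sign. Under the GC correction over all genes these were ULK1 (-1.36), LAMP1 (-0.019), CTSD (-0.51), TFEB (-0.068), PIK3C3 (0.31), TMEM41B (0.54), ATG4B (-0.10), TAX1BP1 (0.77), ATP6V0C (-0.15), TSC2 (-0.057) and RRAGB (0.39), none of them relative to the median of 0.59 that this correction gave well-counted genes. With the replicate block added they were ULK1 (-1.20), LAMP1 (-0.017), CTSD (-0.46), PIK3C3 (0.31), TMEM41B (0.53), ATG4B (-0.10), BNIP3L (0.0076), TAX1BP1 (0.79), ATP6V0C (-0.14) and RRAGB (0.42). Under the correction on well-counted genes they were ULK1 (-1.14), BECN1 (-0.058), LAMP1 (-0.079), CTSD (-0.10), CTSL (-0.20), YKT6 (-0.18), PSAP (-0.076), TSC2 (-0.048), ATG3 (-0.039) and IGF2R (-0.24). With protein-coding transcripts only they were ULK1 (-0.085), BECN1 (-0.15), CTSL (-0.33), VMP1 (-0.37), ATG3 (-0.074) and ATP6V1G1 (-0.0024). BECN1 and CTSL, near 0 as reported, were at -0.035 and -0.061 with at least 10 counts and at -0.12 and -0.14 with background removed; CTSL was at -0.0024 with RLE size factors and BECN1 at -0.0013 without BCSC replicate 1, in a range of -0.0013 to 0.20 with a replicate left out. ATG3 was at -0.0027 with RLE size factors, -0.061 with at least 10 counts and -0.20 with background removed, where ATP6V1G1 was at -0.088. The cause was not tested.

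Same-numbered samples deviated together with correlations of 0.23, 0.070 and 0.25 over 12576 genes, and every sample correlated best with its own number, a hint from the data and not the design. The replicate block left 2 members called higher and 0 lower. With it in edgeR the adjusted p was 4.5e-05 for SQSTM1, 0.000618 for CTSD, 0.000859 for LAMP1, 0.000929 for CTSB and 0.0177 for MAP1LC3B. ULK1, BECN1, GABARAPL1, CTSL and TFEB did not pass with it. By counting error alone, the 0 counts of TFEB in non-BCSC replicate 3 allowed up to 0.288 CPM. The spread of individual transcripts was wider than that of gene sums (coefficient of variation 1.02 against 0.453 in edgeR), and the part of depth in this was not tested.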
